A study of Helianthus annuus with 142 samples.

Results

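The 1653 genes described here lie along chromosome 12 of sunflower, Helianthus annuus, and were followed in leaves of hybrids and lines under drought. They were chosen from a table of 58050 genes, in counts of sequenced fragments, by an identifier that places them on chromosome 12 and by their level. The level is in CPM, the count of a gene scaled to the total of its library. A gene was kept where the mean of its stressed and control averages was from 1 to under 1000 CPM and where the log2 ratio of those averages, after adding 0.5 CPM to each, lay between -3 and 3. Of the 3242 gene models listed for the chromosome, 1560 had a lower level than 1 CPM and 3 reached 1000 CPM. A log2 ratio of at least 3 left out 18, a ratio of at most -3 left out 1, and 7 were marked as ribosomal RNA. The 306 models with no count in any library are among these and not a further group. The members are thus 51.0% of the chromosome's models, and the same rule kept 27024 genes, or 50.2% of the models, on the other 16 chromosomes. The members nearest to the limits had levels of 1.01 and 845.5 CPM and log2 ratios of 2.99 and -2.999, and the nearest genes outside them had 0.995 and 1034 CPM and ratios of 3.07 and -3.006. The rule used the average of stressed against control libraries. The average drought change is therefore described below as values with no test, and nothing is read from it. Differences among lines, among hybrids and between lines and hybrids were not themselves used by the rule. The level averaged all libraries, however, so a gene low in some genotypes could be kept through others where it was high.

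The study grew 24 genotypes under 2 water supplies, and each library came from the leaf tissue of a separate plant in its own pot. The 16 hybrids are all combinations of 4 first-named parents (SF009, SF092, SF109 and SF193) with 4 second-named parents (SF279, SF317, SF326 and SF342), and the 8 lines are these parents themselves. In the 72 stressed libraries the plants were taken when the fraction of transpirable soil water, the share of the water a plant can draw from its pot, had come down to 0.1 in the stressed plant, and in the 70 control libraries it was held at 1. Each group of a genotype and a water supply has 3 libraries, apart from SF342 control, which has 1. There are 48 stressed and 48 control libraries of hybrids and 24 stressed and 22 control libraries of lines. No transgene, deletion or other agent is named in the labels, and which parent was the mother of a hybrid is not stated in them.

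An inbred line carries nearly the same copy of a gene on both of its chromosomes of a pair, and lines of a crop can differ in how strongly a copy is expressed and in whether it is present at all. A first-generation hybrid receives a set of chromosomes from each parent, so a gene that works in only a single parent is read in the hybrid from that parent's copy. Neighbouring genes are passed on together where recombination is rare, which in many plants is the middle of a chromosome. In drying soil, leaves close their stomata, lower the expression of many genes of photosynthesis and growth, and raise genes of water retention and protein protection. The identifiers in the table are paired with no gene names, and none of the 1653 could be matched among the 83308 genes of a RefSeq gene table, so the members are given by identifier and position only, and no role can be attached to them. For the same reason the labelled tissue could not be checked against leaf markers.

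The libraries held between 2796719 and 13765614 counts, with a median of 6922010. The members took 3.21% to 4.40% of the counts in stressed libraries (median 3.795%) and 3.51% to 4.33% in control libraries (median 3.82%). A count of 0 in a library still allows up to 3 counts, which is 0.218 to 1.07 CPM depending on its depth, so a member listed at 0 is not shown to be silent. In whole leaves, fewer cells of a type and less RNA per cell cannot be told apart.

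Before the members were compared, the labels were checked on genes of the other chromosomes alone. Over 7734 such genes that are on in some genotypes and off in others, 138 libraries matched the other libraries of their own genotype best and 4 did not. The library labelled SF092_SF317 stress 3 matched line SF326 at 99.4% of these genes and its own label at 63.4%, and the library labelled SF326 stress 3 matched SF092_SF317 best, at 97.7%. The library labelled SF009_SF279 control 1 matched hybrid SF009_SF326 at 88.6% and its own label at 77.9%. The library labelled SF009 control 2 matched its label at 86.9% and SF009_SF326 at 88.5%. These are the 4 doubted libraries, and several counts that rest on them are given with and without them. All libraries of line SF009, control 2 among them, matched their own label at only 85.5% to 90.9%. Those of the other lines matched theirs at 95.9% to 99.8%, apart from SF326 stress 3. The libraries of SF009 were thus less alike on these genes, and results on line SF009 carry this limit.

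A second check set each hybrid against all 28 pairs of lines, again on the other chromosomes. For 12 of the 16 hybrids the labelled pair of parents fitted best, with 89.7% to 98.8% agreement, and 0.0985% to 5.4% of the genes that were off in both labelled parents were on in the hybrid. The hybrids labelled SF009_SF279, SF009_SF326, SF092_SF326 and SF109_SF326 agreed better with another pair. Their agreement with the labelled parents was 82.3% to 83.8%, and 14.9% to 19.1% of the genes off in both labelled parents were on in them. For example, SF109_SF326 matched SF109 and SF326 at 82.8% and SF109 and SF279 at 85.0%. These 4 are called the doubted hybrids, 3 of them are hybrids of SF326, and several results on parents are given with all 16 hybrids and with the other 12.

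The members start between 48629 and 166261531 on chromosome 12 and were placed in 17 windows of 10 Mb by their start, so that window 1 runs from 0 to 10 Mb and window 17 begins at 160 Mb. They were densest at the near end of the coordinates, with 206 members in window 1 and 174 in window 2, and sparsest in window 14 with 44 and window 13 with 52. The median member was 3707 bp long and had a level of 9.88 CPM, and 800 lie on the plus strand and 853 on the minus strand. All 1653 passed the filter on low counts and were tested among 36989 genes with edgeR's quasi-likelihood test. A member is called where its p-value, adjusted over all genes tested by the Benjamini-Hochberg method, is under 0.05.

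The average drought change helped to choose the members, so it is given as values only. On the ratio of mean CPM that the rule used, which scales libraries by their totals, the median log2 ratio of stressed to control libraries was 0.25 over the members and 0.22 over the genes of the same rule on the other 16 chromosomes. The log2 ratio was over 1 at 141 members and under -1 at 157. The zero point of such values moves with the scaling. The median change of all genes tested was 0.23 log2 when libraries were scaled by their totals and 0.03 with the edgeR scaling used below, whose factors averaged 1.08 ± 0.0752 in the 72 stressed libraries and 0.928 ± 0.0657 in the 70 control libraries (SD).

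Along the chromosome, the median change of a window lay above 0 in most genotypes in some windows and below 0 in most in others, with the edgeR scaling. It was above 0 in 21 of 24 genotypes in window 1, in 22 each in windows 4 and 16 and in 23 in window 6. In window 6 (50 to 60 Mb) the median member changed by 0.24 log2 in the average hybrid and by 0.13 in the average line. In windows 8 (70 to 80 Mb) and 10 (90 to 100 Mb) the median was above 0 in 1 of 24 genotypes each. It changed by -0.14 in hybrids and by -0.07 in lines in window 8, and by -0.22 in hybrids and by -0.14 in lines in window 10. The direction in these last windows turned with the scaling: on the ratio of mean CPM, scaled by library totals, the window medians were above 0 in all 17 windows, with 0.078 in window 8, 0.047 in window 10 and 0.36 in window 6. These windows were picked out after their values were seen. Next neighbours among the members had a correlation of 0.067 in their average drought change (Pearson, 1652 pairs of neighbours that share all libraries).

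**Figure D1:**
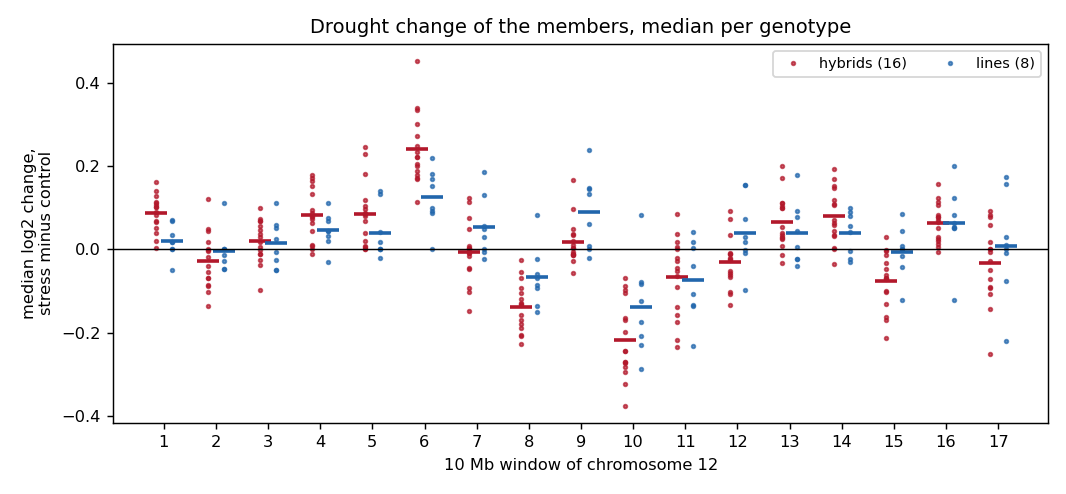
Median log2 change (stress minus control) of the members in each 10 Mb window of chromosome 12, with a point for each of 16 hybrids and 8 lines and a bar for their mean. Window 6 is above 0 in 23 of 24 genotypes, and windows 8 and 10 are above 0 in 1 of 24 each with this edgeR scaling, whereas scaled by library totals their medians were above 0.

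The drought response differed between hybrids and lines at 562 members (34%), against 28.7% of all genes tested. Genes of the same rule on the other 16 chromosomes stood at 34.2%, so the members were near that share. The response was above that of the lines at 234 members (14.2%, background 11.2%, same rule 13.7%). It was below that of the lines at 328 (19.8%, background 17.6%, same rule 20.6%). At 513 of the 562 the hybrids had the larger absolute change. Among the 234 the median log2 change was 0.73 in hybrids and 0.27 in lines, with opposite directions at 39 members. Among the 328 it was -1.27 in hybrids and -0.51 in lines, with opposite directions at 58. The number of calls depended on the plants included, and with a replicate number left out in all groups it was 214 to 424.

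The members with the largest such differences show how unlike the plants of a group could be. HanXRQChr12g0360661 (19461315 to 19462304, plus strand) had 0.971 to 138 CPM in stressed hybrids (median 30.4, n = 48) and 0.138 to 15.3 CPM in control hybrids (median 0.911, n = 48). In lines it had 2.02 to 67.1 CPM under stress (median 13.2, n = 24) and 0.137 to 30.2 CPM in control (median 2.47, n = 22). The groups overlapped in both kinds of plant, and the response was larger in hybrids by 2.73 log2 (SE 0.47, edgeR adjusted p = 4.67e-06). HanXRQChr12g0371321 (68083378 to 68084395, plus strand) went the other way. It had 0 to 32.1 CPM in stressed hybrids (median 1.05) against 19.8 to 57.0 CPM in control hybrids (median 31.4), and 0.197 to 16.6 CPM in stressed lines (median 5.47) against 5.68 to 44.1 CPM in control lines (median 17.0). Its response in hybrids was lower than in lines by a log2 difference of -2.54 (SE 0.40, edgeR adjusted p = 1.04e-06).

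At HanXRQChr12g0358551 (14104683 to 14121672, minus strand) the medians differed in opposite directions. Stressed hybrids had 0 to 131 CPM (median 4.74) against 13.6 to 231 CPM in control hybrids (median 67.8), while stressed lines had 0.197 to 248 CPM (median 21.4) against 0.683 to 69.0 CPM in control lines (median 15.0). The difference in response was -3.42 log2 (SE 0.56, edgeR adjusted p = 1.88e-06). HanXRQChr12g0366621 (43373025 to 43378378, minus strand) had the largest difference in the other direction, 4.05 log2 (SE 0.71, edgeR adjusted p = 7.68e-06), but at low levels: medians were 1.26 CPM in stressed and 0.254 CPM in control hybrids, and 0.709 CPM in stressed and 0.680 CPM in control lines. Its highest value was in a control library of line SF009. Without the libraries of replicate number 3, a fit that also leaves out line SF342 and its hybrids from this comparison, the difference was 3.86 and no longer passed the test.

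The 8 lines differed at 1222 members, or 73.9%, against 75.8% of all genes tested, so the chromosome as a whole stood near the background. On the 17 chromosomes the share among genes of the same rule ran from 72.3% to 83.9%, and chromosome 12 was 15th from the highest. The range from the lowest to the highest line was over 1 log2 at 846 of the called members. SF279 was the lowest line most often, at 253 called members, and SF342 the highest most often, at 195, while SF326 was the lowest at 40. Without the doubted libraries 1263 members were called.

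The share of members that differed among lines changed along the chromosome. It was 84.0% in window 1, 86.2% in window 2 and 82.9% in window 3, between 75.5% and 78.7% in windows 4 to 7, and 57.0% in window 8 (70 to 80 Mb). From window 8 to window 15 it stayed between 54.2% and 73.5%, and it was 76.0% in window 16 and 74.7% in window 17. Taken in 3 stretches, chosen after these shares were seen, 732 of 899 members (81.4%) differed in windows 1 to 7, 352 of 571 (61.6%) in windows 8 to 15, and 138 of 183 (75.4%) in windows 16 and 17.

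The size of the line differences followed the same course. The median range over the 8 lines, taken over all members whether called or not, was 1.18 log2 in windows 1 to 7, 0.80 in windows 8 to 15 and 1.27 in windows 16 and 17. Median levels in these stretches were 9.12, 10.97 and 8.00 CPM. Over 282 windows of 10 Mb on other chromosomes with at least 40 genes of the same rule, the share called ran from 47.0% to 93.6%, with a median of 77.7%. Of the 17 windows of chromosome 12, 6 were under the 5th percentile of those windows, 63.2%, and 0 were over the 95th, 88.9%. The contrast between the stretches was present under every alternative run on it, with 70.6% to 84.2% of members called in windows 1 to 7 and 48.5% to 64.6% in windows 8 to 15.

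Each line was then set against the mean of the other 7. The line differed at 580 members for SF009, against 36% of all genes tested, at 448 for SF092 (background 27%), at 468 for SF109 (background 28.6%) and at 573 for SF193 (background 35.9%). With a replicate number left out, 381 to 523 members were called for SF009. The line differed at 572 for SF279 (background 31.8%), at 550 for SF317 (background 30.6%), at 386 for SF326 (background 23.3%) and at 480 for SF342 (background 26.3%). In percent of the members these were 23.4% for SF326 to 35.1% for SF009, each within 3 points of its background. SF279 was called lower than the others at 291 members and higher at 281, where 11.6% and 20.1% of all genes tested were lower and higher. It was the only line with more lower than higher members on this chromosome. SF326 was lower at 74 and higher at 312, against backgrounds of 6.04% and 17.2%. Without the doubted libraries, among them SF326 stress 3, SF326 was lower at 123 and higher at 337 members. The calls of SF279 were concentrated in windows 2 to 7, where 34.5% to 51.9% of members were called, against 33.0% in window 1 and 17.5% to 31.8% in windows 8 to 17. In window 7 (60 to 70 Mb) 56 of 108 members differed, of which 37 were lower and 19 higher in SF279.

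The pairs of lines give the same picture without a reference. In window 7, the 7 pairs that contain SF279 had a median absolute log2 difference of 0.59 to 0.73 over the members, and the 21 pairs without it had 0.20 to 0.51. In window 9 (80 to 90 Mb) the 7 pairs with SF342 had 0.36 to 0.54, and the 21 without it had 0.21 to 0.35. Among 136 combinations of a line and a window these were the only 2 in which every pair with the line stood above every pair without it. The most alike lines were SF092 and SF326, with 0.17 to 0.28 over the 17 windows, and they were the closest pair in 7 windows.

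The hybrids are separate plants, and the 4 hybrids of each line were set against the other 12. They differed at 458 members for SF009 (background 26.1%), 509 for SF092 (background 29.5%), 424 for SF109 (background 25.9%) and 550 for SF193 (background 32.4%). The hybrids of SF317 differed at 591 (background 30.5%) and those of SF326 at 281 (background 17.4%). Those of SF279 differed at 501 (background 29.9%), of which 249 were higher (background 16.9%) and 252 lower (background 13%), and those of SF342 at 571 (background 29.8%), with 312 higher (background 16.2%) and 259 lower (background 13.6%). Without the 4 doubted hybrids, 288 members were called for hybrids of SF193, and with a replicate number left out 281 to 367 were called for those of SF009 and 180 to 221 for those of SF326. Scaled by library totals alone, hybrids of SF279 were higher at 178 and lower at 316 members, and those of SF342 higher at 443 and lower at 178. Of the members called lower in line SF279, 92.8% were lower also in its hybrids, with a median log2 difference of -0.32 in hybrids and -0.98 in lines, and of those called higher, 90.7% were higher in its hybrids. In window 7, 35 members were called in the hybrids of SF279, 29 of them lower. SF109 (93.3% of lower and 88.9% of higher members) and SF317 (88.9% and 88.6%) carried their differences into hybrids in a like way. Over the 136 combinations of a line and a window, the share called in the line and the share called in its hybrids had a Pearson correlation of 0.676 and a Spearman correlation of 0.666. These points share the windows, their number of members and the control genotypes.

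SF326 was the exception. Of the 312 members higher in line SF326, 43.9% were higher in its 4 hybrids, 51 were called in the same direction and 60 in the opposite one. Without the doubted libraries 47.8% were higher, with 62 called in the same and 54 in the opposite direction. Of its 4 hybrids, 3 are among those that agreed better with another pair of lines, so no value is given with SF193_SF326 alone. With the 12 other hybrids alone, the share of same direction was 81.2% for the higher and 90.6% for the lower members of SF009, against 72.4% and 82.4% with all 16 hybrids, and 93.2% and 94.2% for those of SF279. It was lower with the 12 than with all 16 hybrids for SF317, at 84.1% of higher and 82.4% of lower members. For SF109 it was 84.9% of higher and 92.6% of lower members with the 12, and for SF092 it was 68.9% and 85.0%, against 72.4% and 89.7% with all 16. For SF193 it was 77.2% and 89.0% with the 12, against 77.5% and 83.5% with all 16, and for SF342 83.6% and 82.5%, against 86.7% and 82.5%.

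**Figure D2:**
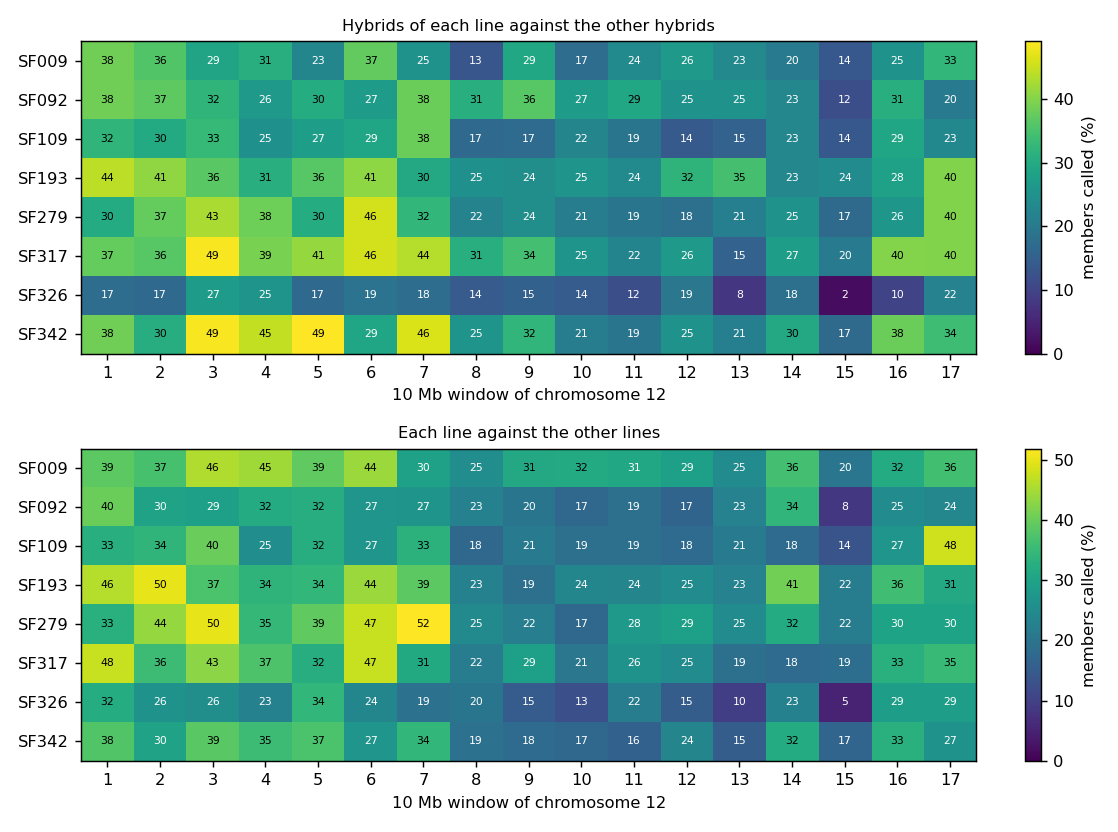
Share of members (%) called in each 10 Mb window of chromosome 12 for the 4 hybrids of each line against the other 12 hybrids (top) and for each line against the other 7 lines (bottom). SF279 has its highest share, 51.9%, in window 7.

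The 2 members with the lowest adjusted p for line differences were both of an on and off kind. HanXRQChr12g0365841 (40151310 to 40153672, plus strand) had 0 CPM in 5 of 6 libraries of line SF279 and 0.0872 CPM in the other, and 0 to 0.516 CPM in line SF317. In the other 6 lines it had 5.01 to 12.2 CPM with no overlap, and the lines differed with an edgeR adjusted p of 2.48e-46. All hybrids expressed it: the 24 libraries of SF279 hybrids had 3.164 to 7.02 CPM (median 4.59) and the 72 of other hybrids 1.79 to 13.4 CPM (median 5.92). HanXRQChr12g0382511 (152004151 to 152008014, minus strand) was expressed in 2 lines, with 25.1 to 71.5 CPM in SF193 and 27.6 to 50.3 CPM in SF342, and no library of the other 6 lines exceeded 0.822 CPM (edgeR adjusted p = 1.56e-44).

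Members of this kind were counted by a fixed rule on the lines. A member was taken as off in a line where its median over that line's libraries was under 0.1 CPM and as on where it was at least 1 CPM, and as on/off where at least 1 line was on and at least 1 off. In the shallowest library 0.1 CPM is less than a count, so off means that at least the middle libraries had no or almost no count. By this rule 226 members, or 13.7%, were on/off, against 15.0% of the genes of the same rule on all 17 chromosomes, among which chromosome 12 was 12th from the highest in a range of 12.4% to 18.9%. The on/off members were shorter than the rest, with a median length of 2777 bp against 3881 bp. Their median level was 3.12 CPM against 11.7 CPM. This level averages in the lines where they are off, so it is lower in part by definition.

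The on/off members were unevenly spread, and the windows with most were again in the first stretch. Window 5 (40 to 50 Mb) held 24 of 102 (23.5%, 95% Wilson interval 16.4% to 32.6%) and window 10 held 3 of 63 (4.76%, 1.63% to 13.1%), where the 282 windows of other chromosomes ran from 2.0% to 34.9% with a median of 14.7%. In the lines, 107 were off in exactly 1 line, of which 51 were on in all the other 7, 76 were off in 2 or 3 lines and 43 in 4 or more. A further count gave 15 that were on in exactly 1 line, and 6 of these were off in the other 7. The rule asked for a mean of at least 1 CPM over the libraries. A gene on in 1 line meets this less easily than a gene off in 1 line, so these counts are not compared. SF279 had most members off, with 108, followed by SF193 with 71 and SF317 with 70, and SF009 had fewest with 30. The last place depended on the libraries: without the doubted ones SF009 had 40 off and SF092 had fewest with 33. SF092 and SF326 were in opposite states at 20 members, the fewest of any pair, and SF193 and SF279 at 116, the most. These counts of pairs include the doubted libraries.

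Of the 107 members that were off in a single line, 39 were off in SF279 alone, 20 in SF193 alone and 1 each in SF009 and SF092. The 39 of SF279 lay mostly in the first part of the chromosome: 29 started between 20 and 80 Mb, where 633 of the members start, and 20 between 20 and 50 Mb. Window 3 (20 to 30 Mb) held 9, more than any other 10 Mb window on the 17 chromosomes, and window 8 held 6. Among the genes of the rule, 2.36% on chromosome 12 were off in SF279 alone, which was the third highest share of 17 chromosomes in a range of 0.362% to 3.85%. The 39 had a median of 4.40 CPM over the medians of the other lines, and 12 of them had no count in any SF279 library.

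**Figure D3:**
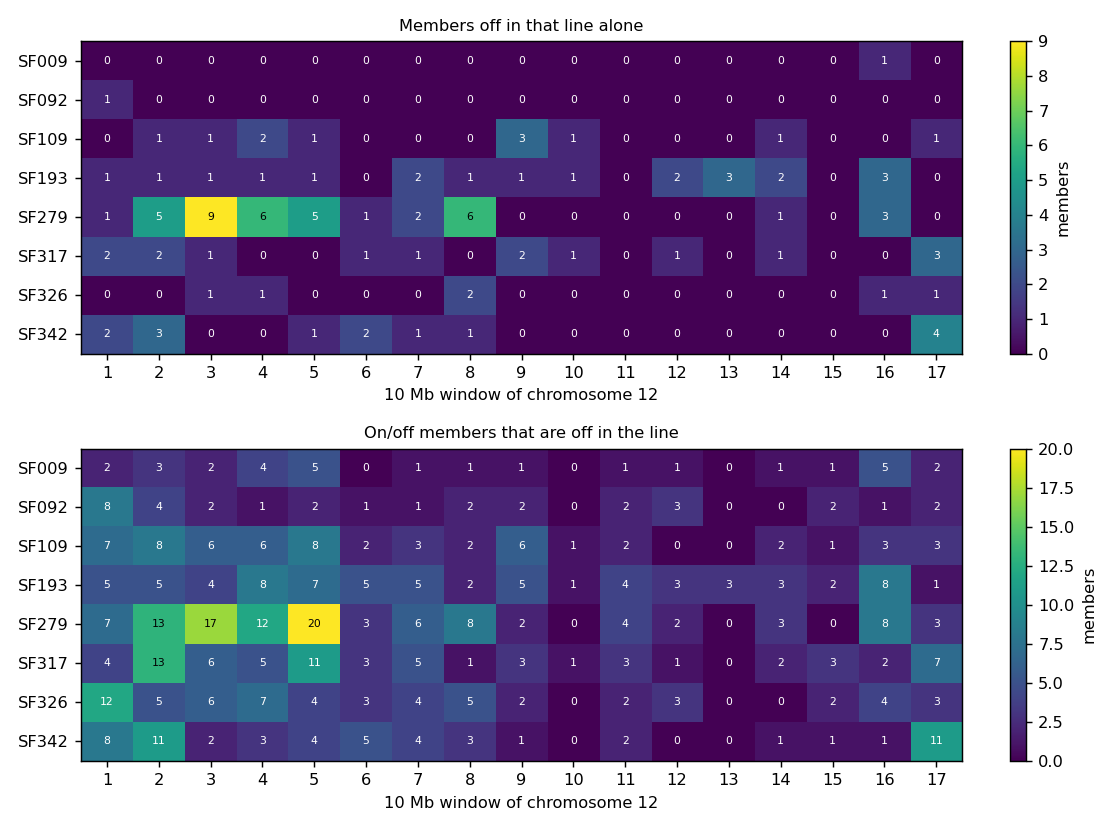
Number of members by 10 Mb window of chromosome 12 that are off in a line alone (top) and on/off members that are off in that line (bottom). SF279 has 9 members off in it alone in window 3 and 20 off members in window 5.

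On/off neighbours seldom shared a pattern. The 226 members fell into 154 patterns of on, off and intermediate over the 8 lines, and the most frequent, off in SF279 and on in the other 7, was held by 25. Of the 225 consecutive pairs, 12 had the same state in all 8 lines, and these lay a median of 18066.5 bp apart against 324745 bp for the other pairs. Within 50 kb, 8 of 45 pairs shared the state, and of 49 pairs over 1 Mb apart, 0 did.

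The hybrids were not used to define the states, and they show what an on/off member does when its parents differ. Their 96 libraries did enter the mean level by which members were kept. Genes low in hybrids were thus kept less often, and the shares and ratios below hold for the kept members only. In the 12 hybrids that agreed best with their labelled parents, a member off in a single parent and on in the other was on in 736 of 911 cases (80.8%), at a median of 0.553 of the level in the on parent (quartiles 0.416 and 0.725). The median by hybrid ran from 0.395 to 0.691. The ratio was 0.570 where the first-named parent was on (584 cases) and 0.533 where the second-named was (327 cases). Where both parents were on, the hybrid was on in 973 of 994 cases (97.9%) and off in 0, at a median of 1.08 of the mean of the parents. Where both were off, it was on in 3 of 220 cases (1.36%).

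The 4 doubted hybrids departed from this at the same members. Where both labelled parents were off they were on in 29 of 89 cases (32.6%), and where both were on they were off in 32 of 396 (8.08%). Where only the second-named parent was on, the median ratio to it was 0.0869 (44 cases), and where only the first-named was on it was 0.783 (156 cases). Hybrid SF009_SF279 was on at 11 of 18 members off in both SF009 and SF279. With all 16 hybrids together, members with an on and an off parent were on in 79.4% of cases at a ratio of 0.564, and those with both parents off were on in 32 of 309 cases (10.4%).

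The 39 members off in SF279 alone were then followed in the 4 hybrids of SF279 and the 12 others. Their median CPM was lower in the SF279 hybrids at 36 of 39, and the ratio of the medians had a median of 0.562 and ran from 0.314 to 1.42. Of the 39, 23 were called lower in SF279 hybrids, against a background of 13%. With the 3 SF279 hybrids and 9 others that agreed best with their labelled parents, 38 of 39 were lower, at a median ratio of 0.520, and 33 were called. For the 25 that were on in all 7 other lines, that ratio was 0.513, 24 were lower, and at 14 all 3 SF279 hybrids lay under all 9 others.

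**Figure D4:**
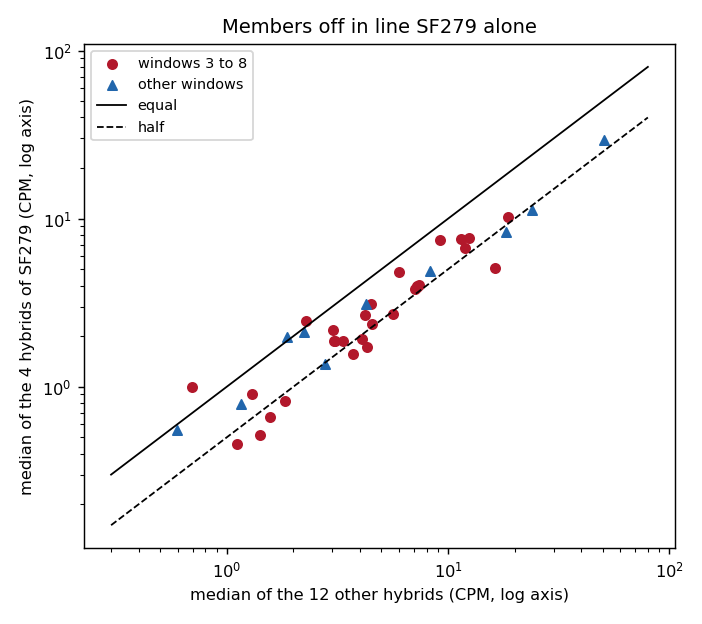
Median CPM of the 39 members off in SF279 alone in the 4 hybrids of SF279 (vertical) and in the 12 other hybrids (horizontal), both on log axes, with circles for windows 3 to 8, triangles for the other windows, and lines for equality and for a ratio of 0.5. At 36 of 39 members the point lies under the line of equality.

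The clearest members on in a single line carried this into hybrids of that line alone. HanXRQChr12g0385521 (163419013 to 163426976, plus strand) had 17.4 to 51.0 CPM in line SF193 (median 26.7, n = 6) and was at 0 in 39 of the 40 libraries of other lines. It had 3.47 to 15.47 CPM in the hybrids of SF193 (median 8.74, n = 24) and was at 0 in 71 of 72 libraries of other hybrids. HanXRQChr12g0372221 (72604736 to 72606600, minus strand) had 18.6 to 33.2 CPM in line SF317 (median 23.8, n = 6) and a median of 0 in the other lines, and 0 to 13.1 CPM in the hybrids of SF317 (median 9.26, n = 24) against at most 0.227 CPM in other hybrids. Its only 0 among SF317 hybrids was the library labelled SF092_SF317 stress 3, and the only value over 1 CPM in other lines, 3.70 CPM, was the library labelled SF326 stress 3, the libraries that agreed better with each other's genotype on the other chromosomes.

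The strongest members off in a single line were less regular. HanXRQChr12g0365141 (36846716 to 36855007, minus strand) had 0 CPM in 5 of 6 libraries of line SF109 and 0.360 CPM in the other, and medians of 9.98 CPM in SF009 and 25.6 to 82.0 CPM in the other 6 lines. The hybrids of SF109 had 8.18 to 57.7 CPM (median 22.2, n = 24) and the other hybrids 8.98 to 66.9 CPM (median 31.2, n = 72), with almost complete overlap. HanXRQChr12g0356131 (5233381 to 5241227, minus strand) was at 0 in all 4 libraries of line SF342, and in the other lines it varied from 0.197 to 519 CPM. Its hybrids of SF342 had 0.248 to 70.5 CPM (median 3.05, n = 24) and the others 0 to 48.2 CPM (median 2.93, n = 72), so no difference could be seen in hybrids beside the spread.

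Among hybrids, the first-named parent made a difference at 875 members (52.9%, background 53.8%) and the second-named at 928 (56.1%, background 52.4%). Among genes of the same rule on the other 16 chromosomes the shares were 56.4% and 55.7%. Both parents were called at 609 members and at least 1 of them at 1194. The hybrids of the 4 first-named parents spanned a median of 0.69 log2 at the called members, where the lines themselves spanned 1.05, and those of the second-named spanned 0.65, where the lines spanned 1.25. Of the members called for the first-named parent 785 (89.7%) were called also among the lines, and of those for the second-named 791 (85.2%). Without the 4 doubted hybrids, in the combinations that remain complete, 625 and 788 members were called.

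Hybrid levels followed the lines in a reduced form. Across members and parents, deviations of the hybrids of a parent from their mean had a Pearson correlation of 0.651 with the deviations of the lines for the first-named parents, with a slope of 0.372, and of 0.610 with a slope of 0.264 for the second-named (6612 pairs of a member and a parent each, which share libraries and neighbouring genes). Among members called for the second-named parent, hybrids of SF317 were highest at 339 and hybrids of SF326 at 109. Hybrids of SF342 were lowest at 276, those of SF279 at 270 and those of SF326 at 169. These counts, correlations and slopes are for all 16 hybrids, and most hybrids of SF326 are among the doubted ones. The slopes of first-named and second-named parents are therefore not compared.

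Along the chromosome, the effects of the parents were again more frequent in the first windows. The first-named parent was called at 69.4% of members in window 1 and at 33.9% in window 15, its lowest share. The second-named was called at 72.1% in window 3 and at 71.6% in window 5, and at 30.5% in window 15. Without the 4 doubted hybrids, the first-named parent was called at 46.1% in window 1 and at 18.6% in window 15. Its highest share was then in window 2, at 48.9%. The second-named was called without them at 65.0% in window 3, at 61.8% in window 5 and at 27.1% in window 15. Beside these shares, hybrids and lines share no libraries, while the windows share the same members.

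HanXRQChr12g0359581 (17225561 to 17229299, plus strand) had the lowest adjusted p for the first-named parent (edgeR, 1.04e-51). Hybrids of SF193 had 6.72 to 20.3 CPM (median 10.8, n = 24), and no other hybrid library exceeded 0.694 CPM (n = 72). Line SF193 had 10.2 to 19.6 CPM and the other lines 0 to 0.309 CPM, so both kinds of plant separated without overlap. HanXRQChr12g0375161 (88657657 to 88662550, minus strand), in window 9, had the lowest for the second-named parent (edgeR adjusted p = 3.91e-50). Hybrids of SF342 had 5.31 to 18.9 CPM (median 9.92, n = 24) and other hybrids 0 to 2.02 CPM (n = 72), while line SF342 had 14.1 to 22.6 CPM and the other lines 0 to 1.86 CPM.

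The combination of parents, a departure from adding the effects of both on the log scale, was called at 308 members (18.6%, background 18.9%). By window the share ran from 5.1% in window 15 to 30.4% in window 5. Without the 4 doubted hybrids 102 members were called, and without the 4 doubted libraries 351 were.

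The 2 members with the lowest adjusted p for the combination both had unusual values in hybrids whose labels are doubted. HanXRQChr12g0382511, described above as expressed in lines SF193 and SF342, had 9.84 to 77.0 CPM in all hybrids of SF342 and 10.9 to 77.0 CPM in all hybrids of SF193. It was also at 15.4 to 29.3 CPM in 5 libraries of SF009_SF279, although neither line SF009 (at most 0.433 CPM) nor line SF279 (at most 0.0987 CPM) expressed it. The sixth library of that hybrid, the doubted control 1, was at 0. The edgeR adjusted p of the combination was 3.86e-30 with all hybrids and 4.09e-24 without the 4 doubted ones, and that of the second-named parent was 6.72e-47.

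HanXRQChr12g0364921 (36221761 to 36226645, minus strand) had 0 to 0.395 CPM in line SF279 and 6.05 to 35.8 CPM in the other lines. Hybrids of SF279 with SF009, SF109 and SF193 had 8.00 to 24.1 CPM, but SF092_SF279 had 0.145 to 0.748 CPM, although line SF092 had 6.05 to 19.3 CPM. SF092_SF326 was likewise low, at 0.180 to 1.09 CPM, although line SF326 had 14.3 to 30.9 CPM, and this hybrid agreed better with SF092 and SF279 on the other chromosomes. SF092_SF317 and SF092_SF342 had 9.67 to 29.0 CPM and did not overlap with these. The adjusted p of the combination was 3.33e-35 (edgeR), and 5.51e-25 without the 4 doubted hybrids.

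**Figure D5:**
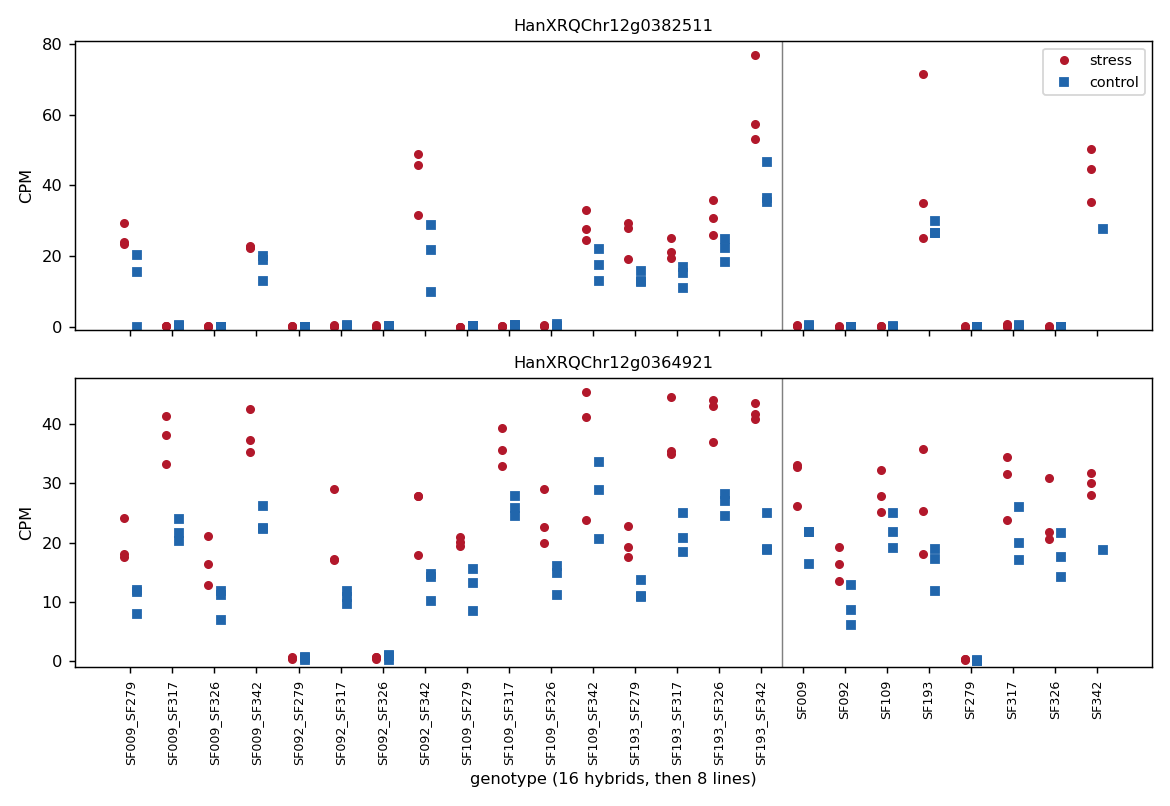
CPM of HanXRQChr12g0382511 (top) and HanXRQChr12g0364921 (bottom) in every library, by genotype and water supply, with 16 hybrids left of 8 lines. The upper member is high in the hybrids of SF193 and SF342 and in 5 libraries of SF009_SF279, and the lower member is under 1.10 CPM in SF092_SF279, SF092_SF326 and line SF279.

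The mean of the hybrids differed from that of the lines at 775 members (46.9%, background 41.3%). Of these, 383 were higher in hybrids (23.2%, background 22.6%) and 392 lower (23.7%, background 18.8%), with median log2 differences of 0.41 and -0.35. Genes of the same rule on the other 16 chromosomes were called at 48.6%, with 26.7% higher and 21.9% lower. In the share called, chromosome 12 was 15th from the highest of 17. Scaled by library totals, 438 members were higher and 323 lower, and without the 4 doubted hybrids 454 were higher and 341 lower. The difference exceeded 1 log2 at 38 of the higher and 28 of the lower members. On/off members were mostly on the higher side, with 82 called higher and 2 lower. The comparison averages log values over genotypes with equal weight, so lines in which a member is off pull its line mean down.

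HanXRQChr12g0359531 (17172085 to 17172871, plus strand) had the largest difference on the higher side, 2.36 log2 (SE 0.18, edgeR adjusted p = 1.39e-19). It had 0 to 6.78 CPM in hybrids (median 3.77, n = 96) and 0 to 13.5 CPM in lines (median 4.31, n = 46), and it was at 0 in all libraries of lines SF279, SF317 and SF342 and at 1.56 CPM or more in every library of the other 5. The median of all libraries was thus lower in hybrids while the mean of log values was higher. With whole lines at 0, the size of this log2 difference depends on how the fit treats a 0, which its SE does not cover. HanXRQChr12g0354601 (1407435 to 1410560, plus strand) was at 0 in all libraries of line SF092 and in 5 of 6 of line SF326, where the library labelled stress 3 had 3.995 CPM. Hybrid SF092_SF326 had 7.40 to 14.7 CPM, although both of its labelled parents were at 0. Over all hybrids it had 0.127 to 20.9 CPM (median 9.68) against 0 to 18.8 CPM in lines (median 5.33), a difference of 2.05 log2 (SE 0.16, edgeR adjusted p = 2.61e-20).

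On the lower side, HanXRQChr12g0381411 (141928285 to 141934753, plus strand) had 0 to 12.97 CPM in hybrids (median 0.319, n = 96) and 0.291 to 35.1 CPM in lines (median 1.85, n = 46). The difference was -3.05 log2 (SE 0.23, edgeR adjusted p = 2.11e-21), and the highest value of the hybrids was in the library labelled SF092_SF317 stress 3, the next being 2.10 CPM. The mean over genotypes was 0.58 CPM in hybrids and 5.11 CPM in lines. This member thus met the limit of 1 CPM through the lines, where it was high, and the adjusted p takes no account of that choice. HanXRQChr12g0355461 (3478401 to 3482455, plus strand) had 0 to 14.7 CPM in hybrids (median 1.20) and 0.394 to 315 CPM in lines (median 6.60), a difference of -2.63 log2 (SE 0.23, edgeR adjusted p = 1.26e-17). Hybrids and lines overlapped at both, and the lines varied more widely.

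The drought response differed among the 24 genotypes at 225 members (13.6%, background 11.9%). Genes of the same rule on the other 16 chromosomes stood at 14%. With a replicate number left out, so that at most 2 plants remained in each group, 12 to 30 members were called, and without the doubted libraries 284 were. The lowest adjusted p was at HanXRQChr12g0354231 (544989 to 550728, minus strand), near the start of the chromosome (edgeR, 3.72e-18). Stressed hybrids of SF342 had 36.1 to 106 CPM (median 80.04, n = 12) against 13.5 to 22.8 CPM in their controls (median 17.1, n = 12), whereas other hybrids had 12.3 to 23.3 CPM under stress (n = 36) and 10.4 to 27.3 CPM in control (n = 36). All 12 stressed libraries of SF342 hybrids therefore stood above every other library of a hybrid. In line SF342 the 3 stressed plants had 23.9, 30.0 and 40.8 CPM against 21.2 CPM in its only control plant, and other stressed lines had 11.9 to 25.6 CPM (n = 21) against 8.75 to 25.7 CPM in control (n = 21).

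HanXRQChr12g0363871 (32061295 to 32064819, minus strand) had the second lowest adjusted p for this difference (edgeR, 2.20e-06), and it responded in most plants. Stressed hybrids had 24.8 to 189 CPM (median 62.7, n = 48) against 12.4 to 33.6 CPM in control hybrids (median 20.2, n = 48). Stressed lines had 12.0 to 210 CPM (median 32.6, n = 24) against 3.69 to 34.0 CPM in control lines (median 21.6, n = 22). Both of the extreme stressed values belonged to line SF279, whose 3 stressed plants had 12.0, 68.0 and 210 CPM, and without replicate number 1 the adjusted p was 0.0732.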

How the data were processed

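Leaf RNA was sequenced from stranded paired-end libraries, per the labels' protocols. The authors deposited a table of raw counts per gene. Its aligner, counter and build: not given in the sources used here. R 3.3.3 and edgeR 3.16.5 appear in the submitters' processing notes with no stated role. Coordinates are those of the table. The identifiers name XRQ, and whether copies that differ from it were counted less was not tested. Ribosomal RNA rows (17, with 3.33e-05% to 0.169% of a library's counts) were left out.

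A negative binomial model with a mean for each of 48 groups was fitted to all 142 libraries in edgeR 4.0.16 (R 4.3.3; filterByExpr, TMM, robust quasi-likelihood F-tests), with Benjamini-Hochberg adjustment over 36989 genes. It was first tested on simulated counts. Each SE printed is the absolute log2 difference divided by the square root of the F value of its test. It is thus derived from the test and is not a separate estimate of the spread. Alternatives were other scalings, no filter, limma 3.58.1 voom, DESeq2 1.42.0, a replicate block, a block of same-numbered pairs and left-out libraries or hybrids. A second deposited table was not used. Figures used matplotlib 3.10.9.

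The members, lists and tests were chosen with earlier results of these data known. Members named per comparison are the 2 with the lowest adjusted p, or the 2 with the largest difference in each direction among those called, and the 2 with the highest level among on/off members of a single line. Intervals and limits for a count of 0 cover counting error only. Replicates are separate plants in the labels.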

Additional observations from a re-analysis of the deposited data

Results flagged for a closer look

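Several results stood out because an effect differed between groups by a test of the difference itself. The drought response differed between hybrids and lines at 562 members, with log2 differences of 4.05 at HanXRQChr12g0366621, 2.73 at HanXRQChr12g0360661, -3.42 at HanXRQChr12g0358551 and -2.54 at HanXRQChr12g0371321. It differed among the 24 genotypes at 225 members, with edgeR adjusted p of 3.72e-18 at HanXRQChr12g0354231 and 2.20e-06 at HanXRQChr12g0363871. The effect of a parent differed with the other parent at 308 members, with edgeR adjusted p of 3.33e-35 at HanXRQChr12g0364921 and 3.86e-30 at HanXRQChr12g0382511. The 4 doubted hybrids move with the last count, which was 102 without them.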

How the results depend on the processing

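The main counts of calls stayed within 1.5 times under other scalings, no filter and voom, and under DESeq2, run on line differences alone (1090 members). Without the 4 doubted hybrids the combination of parents was called at 102 members in place of 308, and hybrids of SF193 differed from the others at 288 in place of 550. With a replicate number left out, the calls were 214 to 424 of 562 for the drought response of hybrids against lines, 12 to 30 of 225 for the differences among genotypes in drought response, 381 to 523 of 580 for line SF009, 281 to 367 of 458 for hybrids of SF009 and 180 to 221 of 281 for hybrids of SF326. Leaving out a number leaves at most 2 plants in each group. Without number 3 line SF342, whose only control plant has it, was left out too. With replicate numbers as a block 1221 members differed among lines, 871 and 933 by the first- and second-named parent, 312 by their combination, 783 between hybrids and lines, and 552 and 213 in drought response. Same-numbered stressed and control plants of a genotype correlated over 0.1 in 39 of 69 pairs (median 0.122) and not in all. The median was 0.0013 over all same-numbered libraries of different groups and -0.0022 over differently numbered ones. The main tests took the plants as unpaired, although these values leave a pairing possible. A block for each same-numbered pair of a genotype, in voom and chosen after seeing the data, gave 580 and 249 calls in drought response. The tests of lines and parents were not run with that block. The 18 results on named members gave 188 values under the alternatives; 186 kept their side of the threshold, 2 lost it, both named above, and 0 reversed. Where off needed a median of 0, 203 members were on/off, and where on began at 2 CPM, 211.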
